A study of Rattus norvegicus with 18 samples.

Results

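Neuregulin 1, the epidermal growth factor (EGF) ligands and the ErbB receptors were followed in rat sciatic nerve in the first 9 h after a piece of the nerve was cut out. The 9 genes were Nrg1, Areg, Ereg, Btc, Hbegf, Tgfa, Egfr, Erbb2 and Erbb3, and every probe carrying one of these names in the scanner files was taken, which gave 11 of the 41012 probes on the array. Nrg1 and Egfr were read by 2 probes each and every other gene by 1. The genes were chosen from their measured changes on these same arrays, with earlier results known, so their counts and P-values are given as a description of these genes and not as independent support for a change.

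Proximal nerve segments, the stump that stays joined to the spinal cord, came from adult, male Sprague-Dawley rats after resection of the left sciatic nerve under anaesthesia. The time after injury was 0 h or 0.5 h in the earliest groups, 1 h or 3 h in the next and 6 h or 9 h in the latest, with 3 Agilent arrays of 1 colour in each group, 18 in all. The strain, sex, nerve and operation were the same in every group, so the groups differed by label only in the time after injury. The sources used here do not say if an array held RNA of 1 rat or of several, and the P-values measure the spread between arrays, which may be partly technical.

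Signals are given as log2 of the processed signal relative to the 75th percentile of its own array, so that a value of 0 lies at that percentile and a difference of 1 is a doubling. Signals of different probes depend on how well each binds, so their levels were not ranked against each other. Testing was limited to probes that the scanner software marked as well above background on the 3 arrays of some time-point, and all 11 passed. Since a probe can pass through the time-point where it is high, that number is no result. To be called, a change needed an adjusted P-value (Benjamini-Hochberg, over all 32111 tested probes) under 0.05 as well as an unadjusted P-value under 0.01.

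ErbB receptors are receptor tyrosine kinases that pair when a ligand binds. Neuregulins bind Erbb3 and Erbb4, whereas Areg, Tgfa and EGF bind Egfr, and Hbegf, Ereg and Btc bind both Egfr and Erbb4. Erbb2 has no known ligand and serves as the preferred partner of the others, while Erbb3 has little kinase activity of its own. In peripheral nerve, neuregulin 1 on axons supports Schwann cell survival and sets the thickness of myelin through Erbb2 and Erbb3, and Schwann cells themselves are known to make neuregulin 1 after injury. The ligands are made as precursors spanning the membrane, and proteases of the ADAM family release most of them.

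Scanning took place on 1 day for 0 h and 0.5 h and on a second day for 1 h to 9 h, apart from replicate 3 of 9 h, which was scanned later still. A contrast of 1 h or later with 0 h therefore cannot be told apart from a difference of scan day, whereas 0.5 h against 0 h and 6 h against 1 h each lay within 1 day. No slide held arrays of more than 1 time-point, so slide and time-point cannot be told apart in any contrast. The share of spots well above background was 65.9% to 86.4% on 17 arrays and 93.5% on replicate 1 of 6 h, which stands apart in this respect. All 14 Schwann cell markers, such as Mbp, were well above background on the 3 arrays of 0 h. Their mean log2 signal ranged from 2.90 to 3.12 among the arrays of 0 h and from 3.01 to 3.32 among those of 9 h, with 2 of the 14 called higher at 9 h (Gfap by 3.55 and Ngfr by 0.97) and 5 lower, such as Mag (by -0.90) and Pmp22 (by -0.60). Of all tested genes with a listed symbol, 17.5% were called higher at 9 h and 17.5% lower. A list of 12 skeletal muscle genes ranged from 2.19 to 6.87 among the 3 arrays of 0 h and from -3.81 to 3.16 at 9 h, a spread between replicates with none of the 12 called, and its part in the results below was not tested. In bulk tissue, fewer cells of a type and less RNA per cell cannot be told apart.

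Across the 6 time-points 7 of the 11 probes were called by limma's F-test, against 34.2% of all tested probes. They were both Nrg1 probes and those of Areg, Ereg, Btc, Hbegf and Tgfa, that is, every ligand among the 9 genes and no receptor. At 0.5 h 1 probe was called higher and none lower, where 4.04% and 1.67% of all tested probes were. At 1 h the counts were 2 and 0, against a background of 3.42% and 1.93%. At 3 h they were 6 and 0, against 7.2% and 6.4%. At 6 h they were 6 and 1, against 12.2% and 12.4%. At 9 h they were again 6 and 1, against 15.6% and 14.8%. That split at 9 h was 5 higher and 2 lower with quantile normalization, the shift to the median and the deposited matrix, while at 3 h the shift to the median gave 5 and 1. With normexp background correction 3 probes were called over the time-points, both of Nrg1 and that of Tgfa, with none called at 3 h, 1 higher at 6 h, 3 higher against 1 lower at 9 h, and 1 higher between 6 h and 1 h. Between 6 h and 1 h, within a single scan day, 5 probes were called higher and 1 lower, against 11.8% and 12.2%. The median change of the 11 probes against 0 h was 0.02, 0.25, 0.84, 0.89 and 1.06 on the log2 scale from 0.5 h to 9 h, while the median over all tested probes was between 0.00 and 0.02 at each time-point. Comparisons with 0 h share its 3 arrays and are not independent of each other.

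**Figure D1:**
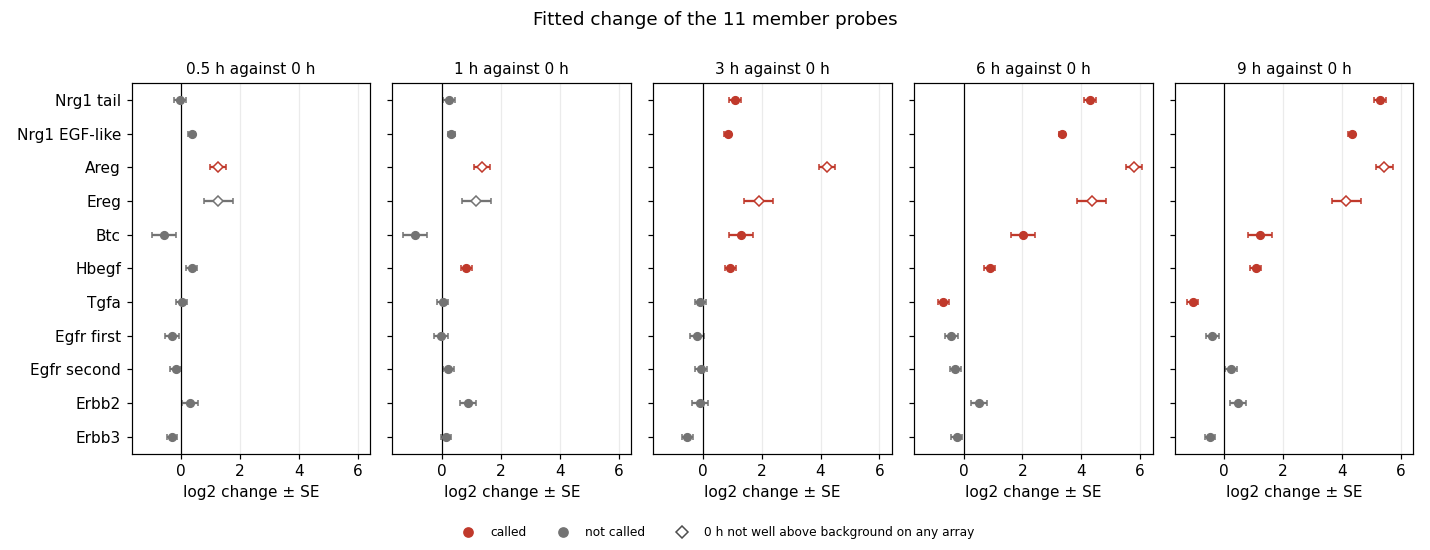
Log2 change of each of the 11 probes against 0 h (x axis) at the 5 later time-points, with the standard error of limma's fit as bars. The probes of Nrg1, Areg and Ereg lie farthest to the right at 6 h and 9 h, whereas no receptor probe is called, the widest change among them being 0.87 for Erbb2 at 1 h. Diamonds mark probes not well above background on any array of 0 h, whose fitted change is no measure of size.

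Nrg1 rose from 3 h onwards at both of its probes and was highest at 9 h. It was read at 2 places of the transcript, which are shown because they fall in different parts of the precursor. The first (A_44_P477819, chr16:64124972-64125031, rn4) is placed here, from general knowledge of the gene, in the coding sequence of the intracellular tail, and the second (A_44_P438143, chr16:64093883-64093942, rn4) at the start of the EGF-like domain, the part that binds the receptor. Which isoforms each one reads was not analysed here. They are called the tail probe and the EGF-like probe here, and start at bases 2034 and 865 of the transcript record on which they were designed. Both are printed 5′ to 3′ in lower case throughout, with no base singled out:
Nrg1 tail probe: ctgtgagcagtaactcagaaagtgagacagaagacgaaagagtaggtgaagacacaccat
Nrg1 EGF-like probe: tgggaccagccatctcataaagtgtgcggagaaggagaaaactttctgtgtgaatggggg

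The tail probe was well above background on all 18 arrays. Its log2 signal was -5.04, -4.43 and -4.74 at 0 h, -4.90, -4.68 and -4.75 after 0.5 h, and -4.60, -4.66 and -4.21 after 1 h. It was -3.93, -3.50 and -3.48 after 3 h, -0.26, -0.24 and -0.85 after 6 h, and 0.62, 0.32 and 0.70 after 9 h. The arrays of 0 h overlapped those of 0.5 h and of 1 h, which did not overlap each other, and from 1 h on every time-point lay wholly above the one before it. Against 0 h the change was 1.10 ± 0.20 (SE, n = 3 arrays a time-point; adjusted P-value 0.00273) at 3 h. It was 4.29 ± 0.20 (adjusted P-value 1.32e-08) at 6 h and 5.29 ± 0.20 (adjusted P-value 1.43e-09) at 9 h, or 39.0-fold. Between 1 h and 6 h, within the second scan day, the tail probe rose by 4.04 ± 0.20 (adjusted P-value 7.08e-08), or 16.5-fold.

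The EGF-like probe was printed at 10 spots of each array, whose values were averaged. It gave -5.79, -5.51 and -5.56 at 0 h, -5.33, -5.22 and -5.28 after 0.5 h, and -5.32, -5.27 and -5.32 after 1 h. Later it gave -4.86, -4.78 and -4.71 after 3 h, -2.28, -2.26 and -2.31 after 6 h, and -1.30, -1.54 and -1.05 after 9 h. All later arrays lay above those of 0 h, 0.5 h and 1 h overlapped, and from 1 h on neighbouring time-points did not. On 4 of the 6 arrays of 0.5 h and 1 h the probe was not well above background. Its rise was 0.84 ± 0.11 (adjusted P-value 0.000221) at 3 h, 3.34 ± 0.11 (adjusted P-value 2.34e-10) at 6 h and 4.33 ± 0.11 (adjusted P-value 3.31e-11) at 9 h, the last being 20.1-fold. Between 1 h and 6 h it rose by 3.02 ± 0.11 (adjusted P-value 1.55e-09), a size that is uncertain because 1 of the 3 arrays of 1 h was well above background. The difference from 0 h was 0.35 at 0.5 h, called without replicate 2 or 3 of 9 h (adjusted P-value 0.0484 and 0.0345), and 0.32 at 1 h, called without replicate 3 of 9 h (adjusted P-value 0.0490).

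The log2 change against 0 h was larger at the tail probe than at the EGF-like probe at 3 h, 6 h and 9 h alike, which is given as a description with no test. Within an array the log2 signal of the first minus that of the second does not depend on how the array is scaled, and its shift with time is of interest rather than its level. It was 0.75, 1.08 and 0.82 on the arrays of 0 h, where both probes were well above background. It was 0.93 to 2.03 on the 9 arrays of 3 h and later, also with both probes well above background, and overlapped 0 h at 3 h alone. On the arrays of 0.5 h and 1 h, of which 4 had the EGF-like probe not well above background, the difference was 0.44 to 1.11 and is no exact measure. How far closeness to background at the EGF-like probe enters into the unequal change was not tested. With normexp background correction, which adds a fixed offset to every signal, the rise at 6 h stayed called for the tail probe, at 3.19, but not for the EGF-like probe, at 1.86 (adjusted P-value 0.0849). At 3 h neither probe was called with that correction, and both changed by 1.32, so the unequal change was not seen there. The rise of the EGF-like probe from 1 h to 6 h was then 0.92 and not called (adjusted P-value 0.331).

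**Figure D2:**
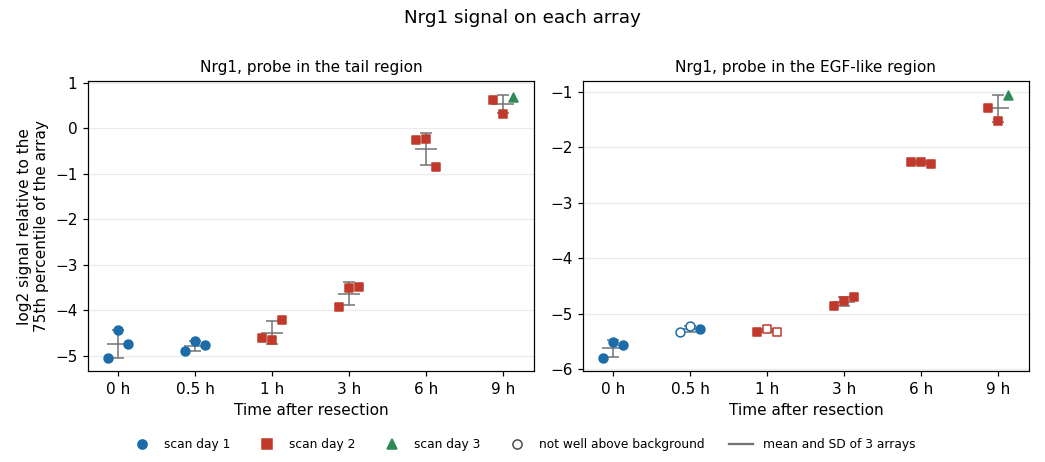
Log2 signal of the Nrg1 tail probe (left) and EGF-like probe (right) on each of the 18 arrays by time after resection, with the mean and SD of the 3 arrays of each time-point. Marker shape and colour give the scan day and open markers are not well above background. Both panels stay low up to 1 h and rise from 3 h, each probe on its own scale, up to 0.70 for the tail probe and -1.05 for the EGF-like probe on replicate 3 of 9 h.

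Areg and Ereg, which encode amphiregulin and epiregulin, were not well above background in the nerve at 0 h and were so on all arrays of 6 h. Areg, Ereg and Btc lie next to each other in the genome, all within chr14:18233593-18522341 (rn4) by the positions of their probes. The Areg probe is listed at chr14:18466438-18466497. Its log2 signal was -8.72, -8.53 and -8.64 at 0 h, -7.25, -7.28 and -7.64 after 0.5 h and -7.59, -7.44 and -6.82 after 1 h, with no array of these time-points well above background. It was -4.91, -4.52 and -3.79 after 3 h, -3.00, -2.88 and -2.67 after 6 h, and -3.65, -3.18 and -2.75 after 9 h, all well above background. The arrays of 3 h lay above all earlier ones and below those of 6 h and 9 h, which overlapped each other.

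Since the scanner software gives dim spots a surrogate value, the size of a rise from arrays not well above background is only roughly bounded. Against 0 h Areg was at least 4.29-fold higher at 3 h (adjusted P-value 7.36e-07), at least 12.6-fold at 6 h (adjusted P-value 1.61e-08) and at least 9.96-fold at 9 h (adjusted P-value 2.91e-08). Each bound sets the mean of the brighter time-point against the lowest signal that the software took as well above background on the dim arrays. That lowest signal is a convention and no strict ceiling for a dim spot. With normexp background correction the fitted changes of Areg, Ereg and Btc were smaller than the bounds given here and below. Within the second scan day Areg was at least 6.38-fold higher at 6 h than at 1 h (adjusted P-value 4.69e-07). The test also called Areg at 0.5 h and 1 h, but none of the 9 arrays of those contrasts was well above background, no fold is given, and the 2 calls were lost with quantile normalization. The call at 0.5 h was lost without any 1 of the 3 arrays of 0 h or without replicate 1 or 2 of 0.5 h (adjusted P-value 0.0568 to 0.0745), and that of 1 h against 0 h when replicate 3 of 1 h was left out (adjusted P-value 0.0594).

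The region upstream of Areg is shown because of the 6 of 9 genes with an entry in the RefSeq promoter table (GRCr8) it alone held a motif searched. In the 250 bases before the transcript start, chr14:17265642-17265891 on the minus strand, the capitals mark the cAMP response element (CRE), bases 91 to 84 before the start:
Areg promoter: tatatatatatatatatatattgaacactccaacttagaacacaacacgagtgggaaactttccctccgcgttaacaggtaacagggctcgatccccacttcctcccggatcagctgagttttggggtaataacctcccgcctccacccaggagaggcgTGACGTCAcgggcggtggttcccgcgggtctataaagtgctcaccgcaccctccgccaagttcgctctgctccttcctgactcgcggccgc
The letters TGACGTCA, which read the same on both strands, occur in 1.59% of the 33469 promoters of that table over the same length. The AP-1 motif TGANTCA, searched on both strands, occurs in 6.34% of them and in none of the 6. The promoters of Btc, Egfr, Erbb2, Hbegf and Tgfa held neither, and those of Nrg1, Ereg and Erbb3 were not analysed here.

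Ereg is read by a probe across an exon junction (chr14:18521343-18522341, rn4), printed because its bases fall in the coding sequence around the membrane-spanning part of the precursor:
Ereg probe: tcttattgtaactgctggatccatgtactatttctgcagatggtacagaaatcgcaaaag
Its log2 signal was -8.76, -8.52 and -8.59 at 0 h, -7.22, -7.27 and -7.60 after 0.5 h, -7.64, -7.43 and -7.32 after 1 h, and -7.83, -7.12 and -5.21 after 3 h. It was -4.65, -4.52 and -3.63 after 6 h and -4.97, -4.49 and -3.96 after 9 h. Up to 3 h a single array, replicate 3 of 3 h, was well above background, while all 6 arrays of 6 h and 9 h were and lay above the rest. Ereg was at least 4.72-fold higher at 6 h (adjusted P-value 3.66e-05) and at least 4.09-fold at 9 h (adjusted P-value 4.15e-05) than at 0 h, and at least 2.38-fold higher at 6 h than at 1 h (adjusted P-value 0.000454). The call at 3 h gives no fold, because its bound fell under 1, and it was lost without any 1 array of 0 h (adjusted P-value 0.0505 to 0.0556), with quantile normalization (0.0972) or in a fit to the arrays of 0 h and 3 h alone (0.112). Without replicate 3 of 3 h, Ereg was called at 0.5 h and 1 h too (adjusted P-value 0.0233 and 0.0347), with none of those arrays well above background. With normexp background correction no contrast of Areg or Ereg was called, the values at 6 h against 0 h being 1.95 for Areg (adjusted P-value 0.0870) and 1.02 for Ereg (adjusted P-value 0.620). Between 6 h and 1 h the values were then 0.77 for Areg (adjusted P-value 0.387) and 0.02 for Ereg (adjusted P-value 0.989).

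Btc encodes betacellulin. Its probe (chr14:18233593-18233652, rn4) reads the coding sequence of the end of the precursor and is printed because, like that of Ereg, it reads the part of the message behind the EGF-like domain:
Btc probe: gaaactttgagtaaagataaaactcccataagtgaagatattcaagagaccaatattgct
Its log2 signal was -6.80, -5.90 and -6.76 at 0 h, -7.12, -7.29 and -6.85 after 0.5 h and -7.68, -7.06 and -7.47 after 1 h, with only replicate 2 of 0 h well above background. It was -5.41, -5.03 and -5.12 after 3 h, -3.31, -4.68 and -5.44 after 6 h, and -5.01, -5.24 and -5.52 after 9 h, all well above background. The 3 later time-points overlapped each other and lay above every earlier array. The highest value, replicate 1 of 6 h, came from the array with the largest share of spots well above background. With 1 of the 3 arrays of 0 h well above background, the size of a change is uncertain. Against 0 h the fitted change was 1.30 ± 0.40 (adjusted P-value 0.0482) at 3 h, 2.01 ± 0.40 (adjusted P-value 0.00262) at 6 h and 1.23 ± 0.40 (adjusted P-value 0.0306) at 9 h. Within the second scan day Btc was at least 2.07-fold higher at 6 h than at 1 h (adjusted P-value 0.000216), a change that turned to -0.27 with normexp background correction (adjusted P-value 0.778). That correction also took the change at 6 h against 0 h to 0.66 (adjusted P-value 0.836), and a fit to the arrays of these 2 time-points alone lost the call (adjusted P-value 0.0597). At 3 h the adjusted P-value lay close to its limit, and at 9 h the unadjusted one did (0.00909), and each of the 2 calls was lost in 22 of 29 alternatives. They were lost without any 1 array other than replicate 2 of 0 h and replicates 1 and 3 of 6 h, with changes of 1.14 to 1.41 at 3 h and 1.07 to 1.36 at 9 h.

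**Figure D3:**
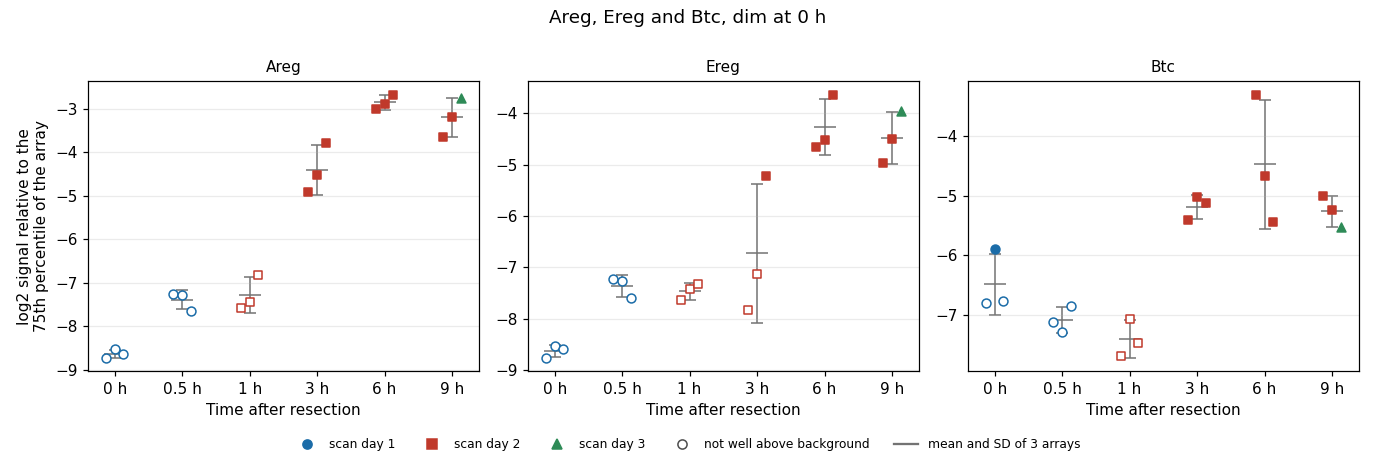
Log2 signal of Areg, Ereg and Btc on each array by time after resection, with the mean and SD of 3 arrays. Open markers, not well above background, fill the early time-points. The arrays of 6 h and 9 h lie above all arrays of 0 h to 1 h in each panel, and at 3 h Ereg has 1 of 3 arrays well above background, at -5.21.

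Several lists of cell type markers also changed over the time course. For the counts at 9 h below, the shares over tested genes with a listed symbol were 17.5% higher and 17.5% lower. Of 9 neutrophil genes listed, 8 were tested, and 6 of these were called higher at 9 h, among them S100a8 by 6.12 ± 0.37 and Cxcr2 by 4.62 ± 0.53. Their mean log2 signal was -4.00 to -3.44 at 0 h, -2.98 to -1.82 at 0.5 h, -2.32 to -1.77 at 1 h, -1.68 to -0.32 at 3 h, -0.60 to -0.42 at 6 h and -0.46 to -0.30 at 9 h. Mpo and Fcgr3a were not called at any time-point and Ngp was not tested, while 6 of the 8 were well above background on all arrays of 0 h. Of 8 macrophage genes 2 were called higher at 9 h and 1 lower, the list's mean being 0.78 to 0.97 at 0 h and 1.16 to 1.81 at 9 h. A list of 6 keratinocyte and epithelial genes went from -2.24 to -2.11 at 0 h to -1.17 to -0.73 at 9 h, with Epcam higher by 4.49 ± 0.23 and Krt18 by 1.96 ± 0.27, whereas Krt5 changed by -0.17 ± 0.17 and was not called. Of 9 fibroblast and perineurial genes 7 were called lower at 9 h and none higher, such as Col3a1 (by -0.63) and Cldn1 (by -0.74), the list's mean being 5.01 to 5.09 at 0 h and 4.60 to 4.72 at 9 h. The part of these cell types in the rise of the ligands or the fall of Tgfa was not tested.

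Hbegf and Tgfa were bright at every time-point, and moved in opposite directions. Hbegf encodes heparin-binding EGF-like growth factor, and its probe is listed at chr18:29143654-29143713 (rn4). Its log2 signal was 1.71, 1.41 and 1.73 at 0 h, 2.23, 1.85 and 1.84 after 0.5 h, 2.28, 2.09 and 2.96 after 1 h, 2.56, 2.53 and 2.55 after 3 h, 2.52, 2.46 and 2.54 after 6 h, and 2.66, 2.55 and 2.82 after 9 h. All later arrays lay above those of 0 h, and from 0.5 h to 9 h neighbours in the order of mean level overlapped. The change was 0.35 ± 0.18 (adjusted P-value 0.274) at 0.5 h, within the first scan day, and did not pass the test. It was 0.83 ± 0.18 (adjusted P-value 0.0182) at 1 h, 0.93 ± 0.18 (adjusted P-value 0.00401) at 3 h, 0.89 ± 0.18 (adjusted P-value 0.00278) at 6 h and 1.06 ± 0.18 (adjusted P-value 0.000630) at 9 h, or 2.09-fold at 9 h. The difference between 6 h and 1 h was 0.06 (95% confidence interval -0.33 to 0.45), so that every called rise of Hbegf rests on a contrast between scan days. Without replicate 2 of 0 h the rise at 1 h was 0.72 and no longer called (adjusted P-value 0.0779), as was that rise in a fit to the arrays of 0 h and 1 h alone (adjusted P-value 0.0929). With normexp background correction the calls at 1 h, 3 h and 6 h were lost (adjusted P-value 0.247, 0.134 and 0.0623), and so was that of the F-test (0.0845).

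Tgfa, which encodes transforming growth factor alpha and was the only ligand among the 9 genes that fell, gave 3.96, 4.42 and 4.48 at 0 h, 4.13, 4.41 and 4.37 after 0.5 h, and 4.42, 4.43 and 4.06 after 1 h. It gave 4.29, 4.11 and 4.17 after 3 h, 3.53, 3.84 and 3.39 after 6 h, and 3.30, 3.50 and 2.83 after 9 h. The probe is listed at chr4:120437505-120437564 (rn4). The first 4 time-points overlapped, and all arrays of 6 h and 9 h lay below them. Tgfa fell by 0.70 ± 0.19 on the log2 scale at 6 h (adjusted P-value 0.0135) and by 1.07 ± 0.19 at 9 h (adjusted P-value 0.000714), a 2.11-fold decrease. Within the second scan day it fell by 0.71 ± 0.19 from 1 h to 6 h (adjusted P-value 0.0121). In the same contrast 8 of the 14 Schwann cell markers were called lower and 1 higher, against 12.2% and 11.8% of all tested probes. The median change of these markers was -0.53, and their part in the fall of Tgfa was not tested. The call at 6 h was lost without replicate 2 of 0 h (a change of -0.63), replicate 3 of 0 h (-0.60) or replicate 3 of 6 h (-0.60), and that of 6 h against 1 h without replicate 3 of 6 h (-0.62). Both calls were also lost with normexp background correction (adjusted P-value 0.107 and 0.204) and in a fit to the arrays of the 2 time-points alone (0.0535 and 0.0523).

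The 4 receptor probes did not pass the F-test over the time-points. Erbb2 (chr10:87241824-87241883, rn4) gave -0.46, -0.30 and -0.23 at 0 h, 0.15, -0.19 and -0.03 after 0.5 h, 0.44, 0.00 and 1.19 after 1 h, -0.21, -0.09 and -0.98 after 3 h, 0.32, 0.22 and 0.06 after 6 h, and 0.28, 0.29 and -0.20 after 9 h (adjusted P-value of the F-test 0.0648). All arrays of 0.5 h, 1 h, 6 h and 9 h lay above those of 0 h, and the arrays of 3 h spanned them. The difference from 0 h was widest at 1 h, at 0.87 (95% confidence interval 0.29 to 1.45, adjusted P-value 0.0772), where the replicates also spread most, and it was 0.55 without replicate 3 of 1 h (adjusted P-value 0.248).

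Erbb3, the receptor of neuregulin 1 in Schwann cells, was read by a probe across an exon junction (chr7:1859093-1859343, rn4). It gave -3.75, -3.48 and -3.31 at 0 h, -3.63, -4.04 and -3.81 after 0.5 h, -3.19, -3.78 and -3.19 after 1 h, -3.71, -4.28 and -4.13 after 3 h, -3.71, -3.71 and -3.84 after 6 h, and -4.03, -4.03 and -3.93 after 9 h. The 3 arrays of 9 h lay below those of 0 h, whereas every other time-point overlapped 0 h. The difference at 9 h was -0.48 (95% confidence interval -0.86 to -0.10, adjusted P-value 0.0501, unadjusted 0.0178) and was not called. It was called with quantile normalization at -0.74 (adjusted P-value 0.0203), with the shift to the median at -0.65 (0.0165) and in the deposited matrix at -0.71 (0.0209), and at 3 h with the shift to the median at -0.62 (0.0482). Over the 30 alternatives the change at 9 h ran from -0.74 to -0.38 (5 called, adjusted P-value 0.0165 to 0.736). At 3 h it ran from -0.69 to 0.55 (3 called), so its direction was not the same in all of them. The F-test of Erbb3 gave an adjusted P-value of 0.0398 but an unadjusted one of 0.0151, over the limit of 0.01.

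Egfr was read by 2 probes. The first (A_44_P346408, chr14:97788051-97788110, rn4) gave 1.53, 1.79 and 1.31 at 0 h, 1.31, 1.16 and 1.23 after 0.5 h, 1.50, 1.32 and 1.73 after 1 h, 1.31, 1.35 and 1.39 after 3 h, 1.07, 1.06 and 1.26 after 6 h, and 1.61, 0.39 and 1.42 after 9 h. Apart from replicate 2 of 9 h, which lay below all others at 0.39, the arrays of the 6 time-points lay between 1.06 and 1.79. The second (A_44_P194138, across an exon junction at chr14:97786789-97787499, rn4) ranged from -1.23 to -0.01 over the 18 arrays, the lowest being at 6 h and the highest at 1 h. At 9 h the 95% confidence interval of the difference from 0 h was -0.91 to 0.10 for the first probe and -0.20 to 0.64 for the second, so a change of 2-fold lay outside both. Neither was called at 9 h, and the difference of the first went from -0.40 to -0.03 when replicate 2 of 9 h was left out. Without replicate 2 of 1 h the F-test called Erbb2, Erbb3 and the second Egfr probe (adjusted P-value 0.0208, 0.00920 and 0.0249), and Erbb2 then rose by 1.14 at 1 h. The same array moved the contrast of 6 h with 1 h to -0.73 for the second Egfr probe and -0.56 for Erbb3, both called when it was left out. Erbb2 at 1 h was also called without replicate 3 of 3 h, at 0.87 (adjusted P-value 0.0477), Erbb2 at 6 h in a fit to the arrays of 0 h and 6 h alone, at 0.53 (adjusted P-value 0.0300), and the first Egfr probe at 6 h without replicate 2 of 9 h, at -0.41 (adjusted P-value 0.0326). Erbb3 was called at 9 h without replicate 1 of 0 h, at -0.60, or without replicate 2 of 1 h, at -0.48, and at 3 h without replicate 1 of 3 h, at -0.69, or replicate 2 of 1 h, at -0.53.

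**Figure D4:**
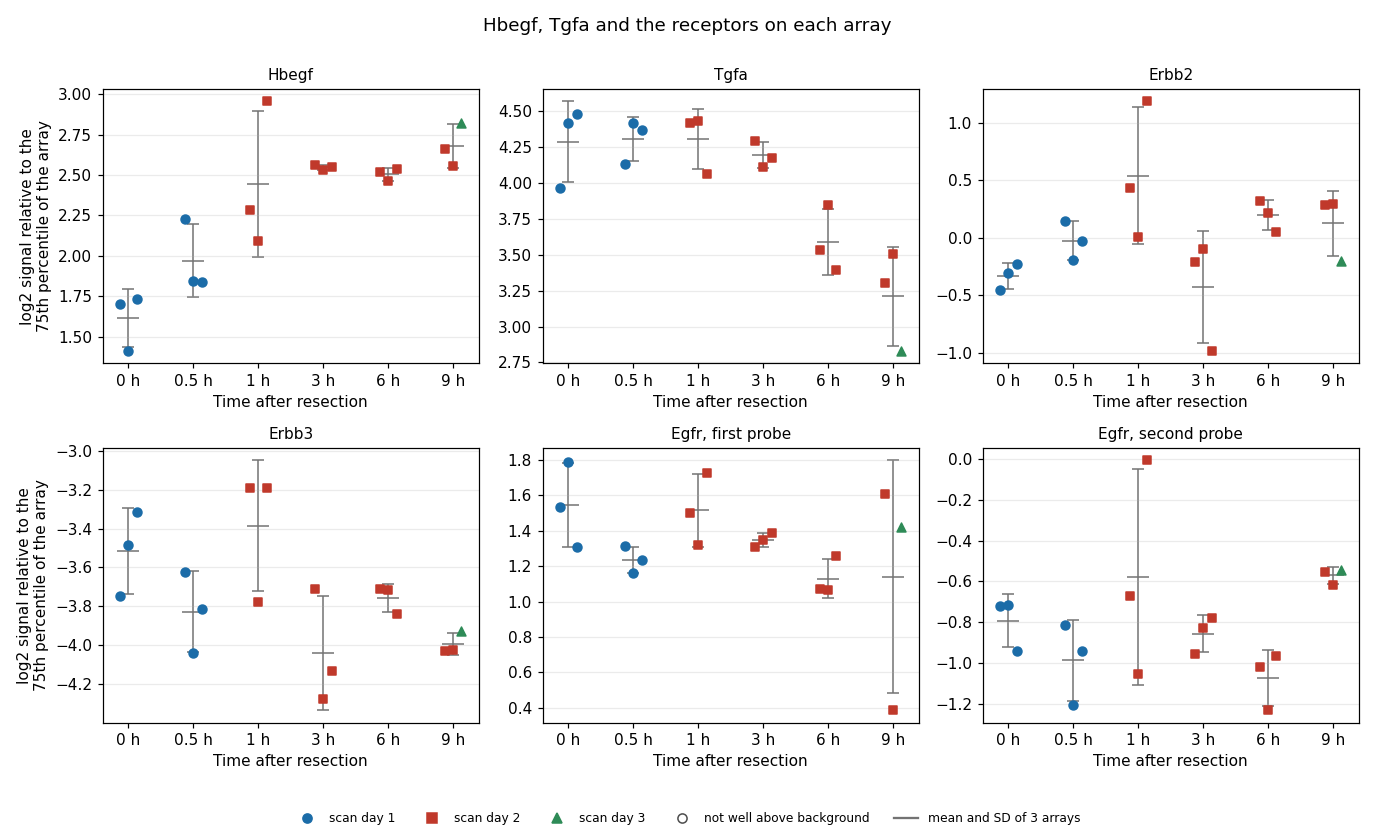
Log2 signal of Hbegf, Tgfa, Erbb2, Erbb3 and the 2 Egfr probes on each array by time after resection, with the mean and SD of 3 arrays and the scan day as marker. Hbegf stands higher from 1 h on and Tgfa lower from 6 h on, whereas many time-points of the receptor panels overlap 0 h, with single arrays apart such as 1.19 for Erbb2 at 1 h and 0.39 for the first Egfr probe at 9 h.

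Within the second scan day alone, an F-test among the time-points from 1 h to 9 h (11 arrays) called 6 of the 11 probes, against 18.9% of all tested probes. These were the probes called over all time-points except that of Hbegf (adjusted P-value 0.920).

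Other genes of the pathway were taken from lists by role, with the tested probe of the highest mean for each gene. Among tested genes with a listed symbol, 38.4% were called in the F-test, and at 9 h 17.5% were called higher and 17.5% lower than at 0 h. Of the other ligands and the remaining receptor, Egf, Nrg2 and Erbb4 were tested and none was called in the F-test. Egf alone passed a contrast, with a fall by 0.71 ± 0.20 at 9 h (adjusted P-value 0.0143). Erbb4 differed by -0.11 ± 0.34 at 9 h and was not called. Epgn and Nrg3 were not tested, being dim at every time-point, and Nrg4 was not found by name.

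Of 7 genes that release or mature the ligands, 2 were called in the F-test. Furin, a convertase that trims precursors, rose by 0.63 ± 0.14 at 9 h (adjusted P-value 0.00336). Rhbdf1, which helps the protease Adam17 to mature, fell by 0.49 ± 0.11 at 3 h (adjusted P-value 0.0101) and was not called at 9 h. Adam12 rose by 1.35 ± 0.42 at 6 h (adjusted P-value 0.0280), though its F-test was not called. Adam17 and Adam10, the main sheddases of the EGF ligands, changed by 0.19 ± 0.16 and -0.50 ± 0.21 at 9 h and were not called.

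Of 21 tested adaptors and effectors that carry the signal from the receptors to Ras, MAP kinase and PI3 kinase, 4 were called in the F-test. Pik3r2, a regulatory subunit of PI3 kinase, fell by 0.64 ± 0.11 at 6 h (adjusted P-value 0.000881) and Gab1, a docking protein, by 0.66 ± 0.14 at 9 h (adjusted P-value 0.00241). Nras rose by 0.40 ± 0.11 at 6 h (adjusted P-value 0.0158), and Map2k2 fell by 0.28 ± 0.09 at 6 h (adjusted P-value 0.0310). At 9 h 1 gene of this list was called higher and 2 lower, of the 21 tested.

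Of 12 tested genes that restrain ErbB signalling or turn the receptors over, 9 were called in the F-test, and those called against 0 h were all higher. At 0.5 h 4 were called higher, against 2.92% of the tested genes with a listed symbol, at 1 h 2 (3.41%), at 3 h 7 (7.88%), and at 6 h (12.2%) and 9 h (17.5%) 4 each. Between 6 h and 1 h, within the second scan day, 4 were called higher and 3 lower, against 11.8% and 12.2% of all tested probes. Errfi1, which blocks the Egfr kinase and is induced by Egfr signalling, rose by 1.45 ± 0.24 at 0.5 h (adjusted P-value 0.00389), 1.59 ± 0.24 at 1 h and 1.38 ± 0.24 at 3 h, and stood at 0.06 ± 0.24 at 6 h. Socs5, which promotes Egfr degradation, rose by 1.47 ± 0.18 at 6 h (adjusted P-value 6.45e-05). Spred1, an inhibitor of the Ras to MAP kinase step, rose by 1.20 ± 0.15 at 6 h (adjusted P-value 7.50e-05). Lrig3 was well above background on no array of 0 h and was called at 0.5 h and from 3 h to 9 h, and no fold is given for it. The early rise of Errfi1, Spry1 and Spry4 at 0.5 h was within the first scan day, and its relation to the ligands was not tested.

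**Figure D5:**
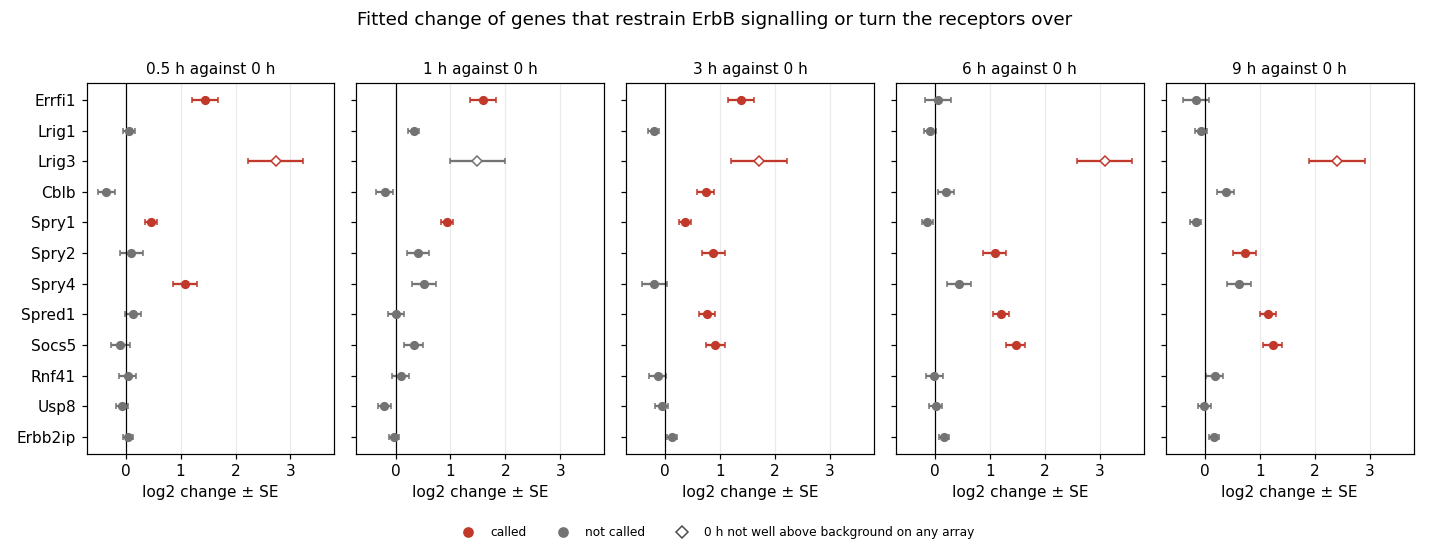
Log2 change against 0 h (x axis) with standard error for the 12 tested genes that restrain ErbB signalling or turn the receptors over, at the 5 later time-points. Errfi1, Spry1 and Spry4 are called at 0.5 h, whereas Socs5, Spred1 and Spry2 are called at 3 h to 9 h, and Rnf41, Usp8 and Erbb2ip stay near 0.

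Genes whose log2 signal ran most closely with a member over the 18 arrays are given as a description, since the arrays share the time course. Areg was well above background on 9 of the 18 arrays, Ereg on 7 and Btc on 10, so that their values below rest largely on dim spots with surrogate values. For the Nrg1 tail probe they were Clca4l (Pearson's r 0.981), Pgap6 (0.981) and Cxcl14 (0.978). For Areg they were Il1rn (0.989), Il1r2 (0.986) and Clec4b2 (0.983), and for Ereg Il1a (0.975), Fcnb (0.963) and Ripk3 (0.954). Btc ran with Utp15 (0.938), Ints6 (0.932) and Obi1 (0.928), and Hbegf with Arf6 (0.938), Dclk2 (0.920) and Pakap (0.917). Tgfa ran with Hmgcs1 (0.989), Slc36a2 (0.984) and Ppp2r2b (0.977).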

How the data were processed

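The authors deposited the scanner output of 18 Agilent rat arrays of 1 colour, written by Feature Extraction 10.5.1.1. Per the file headers, its processed signal is an intensity with background subtracted, in which the software replaces the dimmest spots. A matrix of log2 values was deposited as well and served as an alternative; how it was normalized is not given in the sources used here, but its medians are nearly equal on all arrays (7.7567 to 7.7572). Here control and outlier spots were left out, each array's 75th percentile was subtracted after log2, and repeat spots were averaged. limma 3.58.1 in R 4.3.3 fitted all 6 time-points in 1 model (lmFit, eBayes). Times and replicate numbers came from the labels. Probe positions (rn4) and sequences came from the files and the promoters from RefSeq (GRCr8). Of 41012 probes, 16336 were named through their accession. The script was tested on simulated data. The members, the lists and the genes to be named were chosen with earlier results of these data known. Named were all members, the called genes of the largest change in each list (at most 4), other list genes beside them as values, and the 3 genes most like each called member. Alternatives were other background corrections, normalizations, filters, blocks, priors, thresholds and leaving out each array. The number of arrays and signal over background limit the precision. The methods name a random variance F-test, for which limma's moderated F-test stands here.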

Additional observations from a re-analysis of the deposited data

How the results depend on the processing

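Of the 11 probes, 7 were called over the time-points, and 1, 2, 6, 7 and 7 against 0 h at the 5 later time-points in order, with 6 between 6 h and 1 h. With normexp background correction these counts were 3, 0, 0, 0, 1, 4 and 1, and the Btc change of 6 h against 1 h turned to -0.27. With the filter requiring a signal well above background on each of the 18 arrays, which left 7 of the 11 and no Nrg1 pair, they were 3, 0, 1, 2, 3, 3 and 2. Quantile normalization gave 0 at 0.5 h and 1 at 1 h, and the deposited matrix 0 at 0.5 h. The count at 0.5 h was 2 with scan day as a block, within the first scan day, and with only the arrays of the 2 groups. A change of at least 2-fold left 1 at 1 h. Leaving out 1 array gave 7 to 10 over the time-points, 0 to 2 at 0.5 h, 1 to 4 at 1 h, 4 to 6 at 3 h, 6 to 8 at 6 h, 6 to 7 at 9 h, 5 to 8 between 6 h and 1 h, and 0.82 to 0.96 for the rise of the mean difference between the Nrg1 probes from the 9 arrays up to 1 h to the 9 later ones (0.88 with all arrays, 0.99 with normexp, 0.97 in the deposited matrix and 0.78 within the second scan day), no exact size since 4 of the earlier arrays had the EGF-like probe not well above background. Whether the replicate numbers pair the arrays is not settled by the values. The correlation of deviations was -0.26 to 0.56 for the same number (median 0.07, with 22 of 45 pairs over 0.1). Its median was 0.01 for other numbers. With the replicate block 7 probes were called over the time-points, 5 at 3 h and 6 at 9 h, Btc being lost at both (adjusted P-value 0.0541 and 0.0347), and that rise was again 0.88. Of the other values of single probes, 1852 kept direction and call, 93 lost the call, 23 gained it and 31 values without a call moved. The median change of all probes, between -0.04 and 0.02 over the 6 contrasts, lay between -0.16 and -0.03 with arrays shifted to the median and between -0.39 and 0.44 with normexp. Signals near background, in Areg, Ereg, Btc and the Nrg1 EGF-like probe, limit the size of a change. The cause of these shifts was not tested.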
